A study of Mus musculus with 30 samples.

Results

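Neurons lacking Rbm38 were compared with wild-type neurons at 7 days in vitro (DIV7). The comparison uses 4 of the 30 libraries of the series, chosen by their titles: replicates A and B of the Rbm38 knockout (Rbm38KO) and replicates A and B of the parental wild type (WT). All lines derive from CGR8, a mouse embryonic stem cell line. Rbm38KO cells are clonal lines in which CRISPR-Cas9 removed about 1300 bp of Rbm38, whereas WT cells are the unedited parent. All libraries at DIV7 went through embryoid bodies treated with 6 µM retinoic acid, which directs the cells to a neural fate, and were then kept for 7 days as neurons described as glutamatergic. The other edited groups at DIV7, used as a second reference, are a homozygous deletion of Puf60 exon 5 (Puf60 mEx5 HOM) and constitutive inclusion of that exon on both alleles (Puf60 pEx5 HOM) or on a single allele (Puf60 pEx5 HET), with 2 libraries each. Stem cells (ESC) and day 8 embryoid bodies (EB8) of the same lines served to compare stages. The series text names 2 independent clones, but nothing in the labels ties a clone or a separate culture to the letters A and B, so each p-value speaks only to variation among the libraries at hand. Transcripts were selected by their polyA tails and sequenced with a stranded protocol.

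Rbm38 is an RNA-binding protein with a single RNA recognition motif that binds uridine-rich stretches of mRNA. It is induced by p53 and is known to stabilise the mRNA of the cell cycle inhibitor Cdkn1a, to restrain translation of p53 itself, and to promote inclusion of exons during red blood cell and muscle maturation. Rbm24 is its closest relative and is known mainly as a splicing regulator of heart and skeletal muscle.

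The target of a guide RNA used for the deletion and the exon junctions that could be read in the libraries are shown first. The sequences below come from GENCODE M21 transcripts on GRCm38 (mm10), plus strand. Rbm38 lies at chr2:173020498-173034734. The guide target, shown in capitals inside the coding part of the first coding exon (chr2:173022040-173022270), starts 19 bases after the first coding base and is followed by the trinucleotide CGG, the form of PAM that Cas9 needs. The other guide of the pair is not used here, so the ends of the deletion were not placed.
Rbm38 first coding exon: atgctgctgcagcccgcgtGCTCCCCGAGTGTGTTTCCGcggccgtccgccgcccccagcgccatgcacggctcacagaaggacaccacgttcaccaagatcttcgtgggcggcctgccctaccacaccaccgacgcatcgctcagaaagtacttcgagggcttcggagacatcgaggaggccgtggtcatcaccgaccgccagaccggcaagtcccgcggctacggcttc
The junctions below carry the last 15 bases of the upstream exon in lower case and the first 15 of the downstream exon in capitals.
Junction of coding exons 1 and 2: cgcggctacggcttcGTGACCATGGCAGAT
Junction of coding exons 2 and 3: ggagcttacagacggGCTTTGCTGTTGGTG
Junction of coding exons 3 and 4: ccagcgcacctacggGCTGACTCCTCACTA

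None of the 3 junctions was read in Rbm38KO neurons. The junction of exons 1 and 2 had 156 spliced reads in WT replicate A and 117 in WT replicate B, that of exons 2 and 3 had 80 and 57, and that of exons 3 and 4 had 74 and 58, against 0 in both Rbm38KO libraries at each. Summed over the gene, Rbm38 had 542 spliced reads in WT and 0 in Rbm38KO, or 11.1 and 8.54 CPM (reads of a gene scaled by library depth) in the WT libraries. All of these reads fell on the 3 junctions above. With a floor of 3 reads over the group, they were at least 173-fold lower in Rbm38KO. The guide target lies in the first of the joined exons. The fold thus holds for spliced reads at these junctions. How much of it comes from the removed bases and how much from the level of transcription was not tested. Spliced reads of the gene were also at 0 in Rbm38KO at EB8 and ESC. They were at least 932-fold and 1633-fold below WT, which had 2790 and 4939. The locus was not wholly silent, since 1 read in replicate A and 7 reads in replicate B of Rbm38KO crossed the boundary from the last intron into the last coding exon, where the WT libraries had 4 and 1. In the authors' deposited table, on a measure that also counts reads within exons, Rbm38 had 8.2 RPKM in WT and 2.67 RPKM in Rbm38KO at DIV7 (log2 fold change -1.91, FDR 0.0392). The Puf60-edited neurons had 4.98 to 14.3 CPM, a range that holds both WT values. The relative Rbm24 was low in all 4 libraries, at 2.00 and 1.77 CPM in WT and 1.82 and 2.34 CPM in Rbm38KO, and the groups overlapped.

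Few genes differed beyond the deletion itself. Expression was read as spliced reads per gene, scaled to CPM, and tested with limma on log2(CPM + 1) over all 30 libraries. A gene is said to rise or fall when the Benjamini-Hochberg adjusted p was under 0.05 and the change at least 2-fold on that scale. The 1 CPM added shrinks the log2 fold changes of genes with low CPM. Folds printed beside log2 fold changes are ratios of mean CPM. Of 13938 genes tested at DIV7, 42 were called (0.301%), 1 higher (0.00717%) and 41 lower (0.294%), and the median over all genes was 0.02. At an unadjusted p under 0.05, 367 genes were higher (2.63%) and 562 lower (4.03%). Against the mean of the Puf60-edited lines 15 genes were called (0.108%), and 5 of them were also called in the same direction against WT: Rbm38, Meg3, Rian, Mirg and Rasgrf1. Another 4 of the 15 are the Y-linked genes Ddx3y, Eif2s3y, Uba1y and Uty, each of which had 0 reads in at least 1 Puf60-edited library. The authors' deposited table gave 34 genes with an FDR under 0.05 at DIV7, 1 higher and 33 lower. All 34 had the same direction here, and 13 were called.

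The calls depended on single libraries. WT replicate A had a correlation of 0.992 with WT replicate B across genes, while the Rbm38KO libraries had 0.996 with each other and the closest WT and Rbm38KO libraries also had 0.996. Of the 41 genes called lower, 37 were higher in WT replicate A than in WT replicate B. In Rbm38KO, 37 were lower in replicate A than in replicate B. The share of all genes in either order was not counted. Leaving out WT replicate A left 12 calls, 10 of them shared with the 42, and leaving out Rbm38KO replicate A left 7. Leaving out WT replicate B gave 212 calls and leaving out Rbm38KO replicate B gave 87. Fitted on the 10 DIV7 libraries alone, 6 genes were called. Only Meg3, Mirg, Rasgrf1, Rbm38 and Rian were called in all 17 settings tried. Total spliced reads were similar in all 4 libraries, at 25880317 and 26234777 in WT and 24474676 and 27080488 in Rbm38KO.

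Neuronal markers were high in all 4 libraries. The sum of 6 neuronal markers, Tubb3, Map2, Rbfox3, Snap25, Syt1 and Stmn2, was 3243 and 3790 CPM in WT and 3815 and 3608 CPM in Rbm38KO. Markers of glutamatergic neurons summed to 104 and 133 CPM in WT and 137 and 141 CPM in Rbm38KO, and markers of inhibitory neurons to 602 and 744 CPM against 738 and 588 CPM. Among the glutamatergic markers Slc17a7, the vesicular transporter VGLUT1, was near 0 in each library (0.0736 to 0.177 CPM). Microglia or blood markers stayed between 0.405 and 0.773 CPM in sum. Cells other than neurons were present too. Fibroblast or mesenchyme markers (Col1a1, Col3a1, Dcn, Lum) summed to 1639 CPM in WT replicate A but 500 CPM in WT replicate B, 587 in Rbm38KO replicate A and 510 in replicate B. Endoderm or epithelium markers (Sox17, Foxa2, Epcam, Krt8) summed to 64.6 and 32.3 CPM in WT and 9.63 and 26.2 CPM in Rbm38KO, and astrocyte markers to 538 and 397 CPM against 302 and 378 CPM. No marker measured was at 0 in all 4 libraries. In bulk RNA, fewer cells of a type and less RNA per cell cannot be told apart.

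The clearest loss was in 3 imprinted noncoding RNAs that lie next to each other on chromosome 12. Meg3 (chr12:109541001-109571726), Rian (chr12:109603940-109661716) and Mirg (chr12:109729764-109749460) are transcribed from the maternal chromosome in the Dlk1-Dio3 region and carry many microRNAs and small nucleolar RNAs in their introns. Meg3 had 363 and 359 CPM in the WT libraries and 18.7 and 24.2 CPM in Rbm38KO, 16.8-fold lower (log2 fold change -4.02, SE 0.36, adjusted p = 4.82e-06). Rian had 18.5 and 22.1 CPM in WT and 1.25 and 1.81 CPM in Rbm38KO, 13.3-fold lower (-3.08, SE 0.25, adjusted p = 1.77e-07). Mirg had 9.96 and 11.1 CPM in WT and 1.05 and 1.28 CPM in Rbm38KO, 9.07-fold lower (-2.42, SE 0.23, adjusted p = 2.50e-06). In each of them both Rbm38KO libraries lay far below both WT libraries, and both groups were tight. Of all genes, 13.5% were lower without overlap. Since the 3 are neighbours, they are read here as 1 locus.

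The level of this cluster also varied between the other edited lines. Meg3 had 64.9 and 107 CPM in Puf60 mEx5 HOM, 125 and 183 CPM in Puf60 pEx5 HOM and 1321 and 913 CPM in Puf60 pEx5 HET. The Rbm38KO libraries lay below all 6 of these, and against the mean of the 3 lines Meg3 was lower by -3.44 (SE 0.29, adjusted p = 1.39e-06). Rian ranged from 5.48 to 94.7 CPM and Mirg from 3.04 to 51.8 CPM in those lines. Dlk1, the paternally expressed protein-coding gene of the region, which encodes a Notch-like membrane protein, had 37.6 and 28 CPM in WT and 49.7 and 47.7 CPM in Rbm38KO (0.57, unadjusted p = 0.062). Its libraries did not overlap, and the difference did not pass the test.

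Of the 23 genes in the list of imprinted genes, 0 rose and 3 fell (0.00717% and 0.294% of all genes). The 3 are those of this cluster, and the median was -0.10 against 0.02 over all genes. Of the other 20, 0 were called, and 5 were higher and 3 lower at an unadjusted p under 0.05 (2.63% and 4.03% of all genes). Their median was -0.04. The following were picked after their values were seen. Zim1, a zinc finger gene of the Peg3 region, had 2.57 and 3.53 CPM in WT and 0.890 and 1.28 CPM in Rbm38KO (-0.96, adjusted p = 0.00336). On log2(CPM + 1), the scale of the test, this is just under the 2-fold limit, although the CPM values themselves differ by more than 2-fold. Nnat, which encodes the neuronal membrane protein neuronatin, had 485 and 429 CPM in WT and 713 and 866 CPM in Rbm38KO (0.78, adjusted p = 0.0519). Igf2r, the receptor that clears insulin-like growth factor 2, had 103 and 74.5 CPM in WT and 58.0 and 44.3 CPM in Rbm38KO (-0.78, adjusted p = 0.195).

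Rasgrf1, which encodes an exchange factor that activates Ras at synapses and is also imprinted in mice, fell to near 0. It is outside the list of imprinted genes used here and was singled out after its values were seen. It had 11.3 and 15.0 CPM in WT and 0.324 and 0.213 CPM in Rbm38KO, from 725 reads against 14, a 49.1-fold difference (-3.47, SE 0.13, adjusted p = 1.73e-13). It was also near 0 in some of the other lines, at 0.169 and 0.235 CPM in Puf60 mEx5 HOM and 0.126 and 0.114 CPM in Puf60 pEx5 HET, but 27.4 and 31.2 CPM in Puf60 pEx5 HOM. Levels near 0 were thus seen in 3 of the 4 edited lines.

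**Figure D1:**
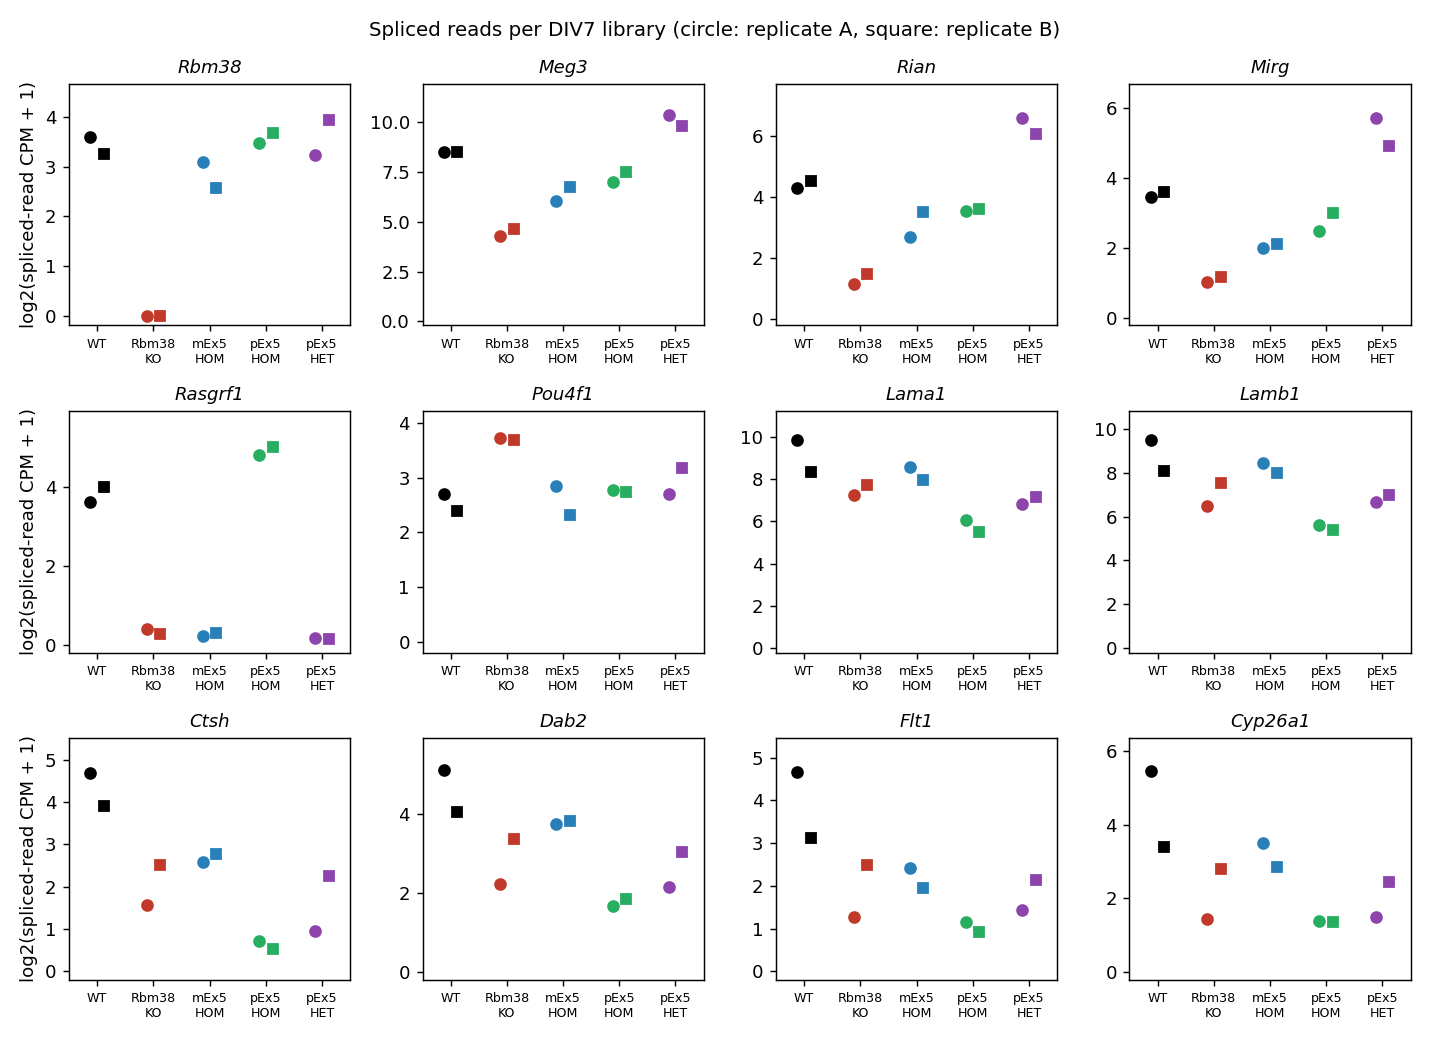
Spliced reads of 12 genes in each DIV7 library, as log2(CPM + 1) on the vertical axis, with 1 point per library (circle for replicate A, square for replicate B) and the 5 groups along the horizontal axis. Meg3, Rian, Mirg and Rasgrf1 are low in both Rbm38KO libraries, while for Lama1, Lamb1, Ctsh, Dab2, Flt1 and Cyp26a1 the circle of WT replicate A lies highest.

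The plot of 12 genes by library shows a different order of libraries for other genes called lower. Lama1 and Lamb1 encode laminin chains of the basement membrane, and Dab2 an endocytic adaptor abundant in visceral endoderm. Lama1 had 920 and 323 CPM in WT and 149 and 208 CPM in Rbm38KO (-1.63, SE 0.33, adjusted p = 0.0309). Lamb1 had 727 and 265 CPM in WT and 89.3 and 182 CPM in Rbm38KO (-1.77, SE 0.38, adjusted p = 0.0413). Dab2 had 33.7 and 15.5 CPM in WT and 3.72 and 9.43 CPM in Rbm38KO (-1.77, SE 0.33, adjusted p = 0.0153). In all 3 genes WT replicate A was the highest and Rbm38KO replicate A the lowest library, and the B replicates lay closer together.

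The same order of libraries held for the other genes named here. Ctsh, a lysosomal cysteine protease, had 24.7 and 14.1 CPM in WT and 1.94 and 4.71 CPM in Rbm38KO (-2.26, adjusted p = 0.00336). Fxyd3, a regulator of the sodium pump, had 10.4 and 4.64 CPM against 0.769 and 3.01 CPM (-1.59, adjusted p = 0.0124), and Tspan8, an epithelial tetraspanin, had 8.89 and 5.48 CPM against 1.01 and 3.37 CPM (-1.43, adjusted p = 0.0159). Flt1, a receptor for vascular endothelial growth factor, had 24.4 and 7.69 CPM in WT and 1.42 and 4.57 CPM in Rbm38KO (-2.02, adjusted p = 0.0325). Tek, the angiopoietin receptor, had 5.43 and 2.94 CPM against 0.607 and 1.70 CPM (-1.27, adjusted p = 0.00602). Glipr1, a gene known as a p53 target, had 5.89 and 2.91 CPM against 0.121 and 1.13 CPM (-1.75, adjusted p = 3.70e-04). Cyp26a1, the enzyme that degrades retinoic acid, had 42.4 and 9.46 CPM in WT and 1.70 and 5.95 CPM in Rbm38KO (-2.30, adjusted p = 0.0432), although at EB8 it had 475 and 562 CPM against 494 and 597 CPM. Klf4, a transcription factor of stem cells and epithelia, had 17.9 and 9.57 CPM against 4.21 and 7.80 CPM (-1.06, adjusted p = 0.0365).

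Most of these falls depended on WT replicate A and Rbm38KO replicate A. Of these 11 genes, Glipr1 alone was still called when either library was left out (-1.34, adjusted p = 0.0194 without WT replicate A). Without that library Lama1 stood at -0.87 (adjusted p = 0.412), Ctsh at -1.88 (adjusted p = 0.154), Flt1 at -1.24 (adjusted p = 0.815) and Cyp26a1 at -1.27 (adjusted p = 0.815). The direction against the Puf60-edited lines was the opposite for Lama1 (0.47), Lamb1 (0.15), Dab2 (0.10), Ctsh (0.40), Fxyd3 (0.18), Tspan8 (0.13), Flt1 (0.20) and Klf4 (0.32), none of which passed that test. Among all 41 genes called lower, the median change was -0.20 against the Puf60-edited lines, and 29 were also lower than WT in all 3 of those lines, with all 6 libraries below both WT libraries for 18. Both counts use the WT libraries in which the 41 genes were chosen as high, a choice that favours lower values in the other lines. The share over all genes was not counted, so nothing is concluded from these counts. The sums of fibroblast, endoderm and endothelium markers were each highest in WT replicate A. Of these sums, only that of endoderm followed the whole order of libraries seen in these genes. The sum of astrocyte markers, at 538 and 397 CPM in WT and 302 and 378 CPM in Rbm38KO, followed it too. The fibroblast sum was higher in Rbm38KO replicate A (587 CPM) than in WT replicate B (500 CPM). The endothelium sum was higher in Rbm38KO replicate B (11.8 CPM) than in WT replicate B (9.68 CPM). The part of these cells in the result was not tested.

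In the lists of genes for these cell types few members were called. Of all genes tested, 4.03% were lower at an unadjusted p under 0.05. Of 15 endoderm and epithelium genes measured, 0 were called and 9 were lower at that threshold, with a median of -0.84 against 0.02 over all genes. Among them Gata6, a transcription factor that sets endoderm fate, had 12.2 and 5.70 CPM in WT and 1.17 and 4.47 CPM in Rbm38KO (-1.45, adjusted p = 0.0598), and the keratin gene Krt18 had 15.0 and 8.57 CPM against 2.02 and 5.46 CPM (-1.49, adjusted p = 0.277), both picked after their values were seen. Without WT replicate A, 2 of the 15 were lower at that threshold and the median was -0.59, and without Rbm38KO replicate A also 2, with -0.67. Of 12 endothelium and pericyte genes 2 fell, Flt1 and Tek (0.294% of all genes fell), and 4 were lower at an unadjusted p under 0.05. The median was -0.27. Without WT replicate A, Flt1 stood at -1.24 and Tek at -0.92, and neither was called. Of 18 fibroblast and extracellular matrix genes 0 were called and 2 were lower at an unadjusted p under 0.05, with a median of -0.50. Of 15 astrocyte genes 0 were called and 3 were lower at that threshold, with a median of -0.04. Of 16 interferon response genes 0 were called and 6 were lower at an unadjusted p under 0.05, with a median of -0.40, which became 1 and -0.14 without WT replicate A.

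Pou4f1 was the single gene that rose. It encodes Brn3a, a POU-domain transcription factor of sensory and some brainstem neurons, and lies at chr14:104461676-104467999 on the minus strand. Its level was 5.54 and 4.23 CPM in WT and 12.2 and 11.9 CPM in Rbm38KO (1.16, SE 0.18, adjusted p = 0.00160). The libraries did not overlap, as in 18.3% of all genes in this direction. The 6 Puf60-edited libraries lay between 3.96 and 8.08 CPM, below both Rbm38KO libraries (0.95, SE 0.15, adjusted p = 0.00138 against their mean). The adjusted p was 0.0588 without Rbm38KO replicate A, 0.221 when fitted on the 10 DIV7 libraries and 0.0563 on the 4 libraries. Of the other neural crest and peripheral genes, 10 were measured and 0 were called. Lmx1b, a transcription factor of hindbrain and dorsal spinal neurons picked after its values were seen, had 6.64 and 11.6 CPM in WT and 16.1 and 16.6 CPM in Rbm38KO (0.82, adjusted p = 0.0810).

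The other genes of lowest p-value among those higher in Rbm38KO changed by less than 2-fold and share a stretch of the X chromosome. Rps6ka3, a growth factor-activated kinase, had 43.4 and 50.9 CPM in WT and 77.8 and 70.3 CPM in Rbm38KO (0.64, SE 0.10, adjusted p = 0.00124). Pdha1, a subunit of pyruvate dehydrogenase, had 302 and 377 CPM against 529 and 488 CPM (0.59, SE 0.09, adjusted p = 0.00124). Sms, spermine synthase, had 208 and 234 CPM against 341 and 346 CPM (0.64, SE 0.10, adjusted p = 0.00160), and Rbbp7, a histone-binding chromatin protein, had 247 and 266 CPM against 356 and 378 CPM (0.51, SE 0.08, adjusted p = 0.00223). Without WT replicate A the adjusted p of these 4 genes rose to between 0.0817 and 0.109. The 4 were picked among genes in which both Rbm38KO libraries lay above both WT libraries, as in 18.3% of all genes.

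Of the 20 genes with at least 2 CPM on average from Sms to Ctps2 (chrX:157443855-163032508, GRCm38), 19 were higher in Rbm38KO. The stretch was chosen after these values were seen, so no test is given for it. The exception was S100g, a calcium-binding protein gene that overlaps Ctps2 on the opposite strand, with 27.1 and 6.66 CPM in WT and 1.34 and 7.83 CPM in Rbm38KO (-1.69, unadjusted p = 0.00523), where the groups overlapped. The other 19 ranged from 0.32 for Phka2 to 0.69 for Cnksr2, and none of them had overlapping libraries (18.3% of all genes were higher without overlap). The median over the 20 genes was 0.55, against 0.01 over the 20 expressed genes flanking them and 0.02 over the 371 genes of the rest of the chromosome. Relative to the WT mean, the median level over the 20 genes was 93.7% and 106% in the WT libraries and 149% and 147% in Rbm38KO. The same genes stood at a median of 0.44 at EB8 and 0.51 at ESC, with 20 and 19 of 20 higher, the exception at ESC being Rai2 (-0.07). The other lines, compared with the same WT libraries, stood there at 141% and 160% in Puf60 mEx5 HOM, 136% and 154% in Puf60 pEx5 HOM, and 76.3% and 77.2% in Puf60 pEx5 HET.

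**Figure D2:**
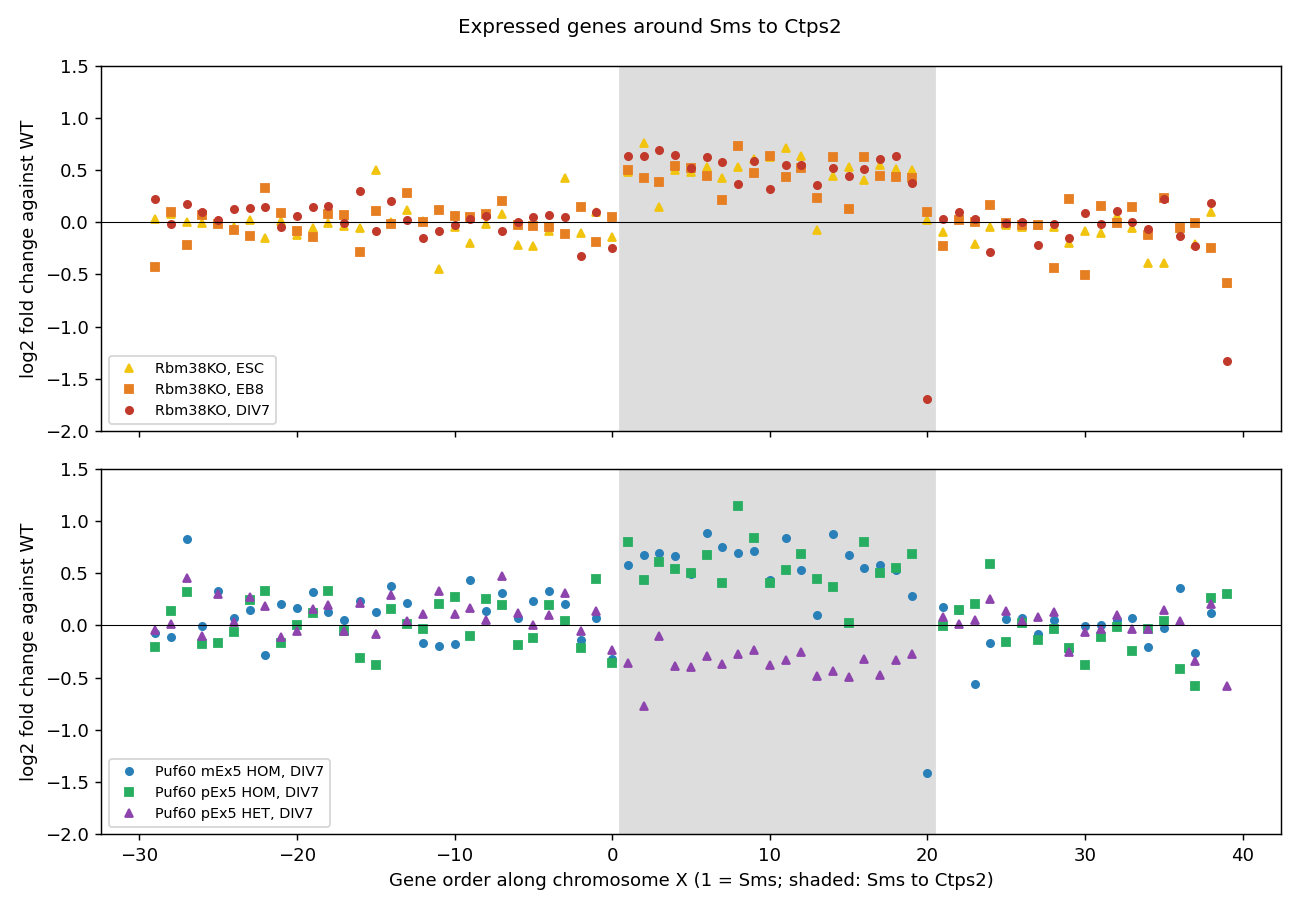
Log2 fold change against WT (vertical axis) of expressed genes in their order along chromosome X (horizontal axis, 1 is Sms), with 1 point per gene and comparison, for Rbm38KO at 3 stages (top) and the Puf60-edited lines at DIV7 (bottom). Of the 20 shaded genes 19 lie above 0 in Rbm38KO at DIV7 and S100g, the last, lies at -1.69, and 3 points fall outside the axis.

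In the plot of genes along chromosome X most points of the shaded stretch stand above their neighbours in Rbm38KO, and the medians were 0.62 in Puf60 mEx5 HOM, 0.54 in Puf60 pEx5 HOM and -0.37 in Puf60 pEx5 HET.

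The reported mRNA targets and partners of Rbm38 did not move as a group. Of 13 measured members of this list only Rbm38 itself was called, and the median was 0.01. Cdkn1a, which encodes the cell cycle inhibitor p21, had 88.9 and 79.1 CPM in WT and 79.8 and 77.3 CPM in Rbm38KO (-0.09, SE 0.19). Trp53 had 64.9 and 60.2 CPM against 56.6 and 63.5 CPM (-0.06, SE 0.13), and Mdm2, the ubiquitin ligase that degrades p53, had 34.2 and 36.4 CPM against 33.4 and 36.2 CPM (-0.02, SE 0.12). The groups overlapped in all 3 genes. The member with the largest increase was Elavl1, which encodes the mRNA-stabilising protein HuR, with 40.8 and 37.9 CPM in WT and 48.4 and 48.7 CPM in Rbm38KO (0.30, SE 0.11, adjusted p = 0.444).

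No member of the list of p53 response genes, which does not hold Glipr1, passed either threshold. Of 33 measured, 0 were called and 0 had an unadjusted p under 0.05, with a median of -0.02. The extremes were Cd82, a tetraspanin, with 5.61 and 3.83 CPM in WT and 2.83 and 3.15 CPM in Rbm38KO (-0.50, adjusted p = 0.864), and Pmaip1, which encodes the cell death protein Noxa, with 0.679 and 1.03 CPM against 1.38 and 1.06 CPM (0.26, adjusted p = 0.995). Of 31 cell cycle genes 0 were called and 0 had an unadjusted p under 0.05, with a median of -0.08.

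Neuronal gene groups differed little between Rbm38KO and WT. Of 34 pan-neuronal genes 0 were called and 0 had an unadjusted p under 0.05, with changes from -0.12 to 0.22 and a median of 0.09. Of 25 synaptic vesicle genes 0 passed either threshold (median 0.11). Of 21 glutamatergic genes 0 were called, and Slc17a6, the vesicular glutamate transporter VGLUT2, was the single one at an unadjusted p under 0.05, with 26.3 and 56.0 CPM in WT and 54.2 and 58.2 CPM in Rbm38KO (0.54, adjusted p = 0.541). Here WT replicate A was the low library and the other three lay close together. Of 20 GABAergic and glycinergic genes 0 were called (median 0.02), and of 29 ion channel genes 0 were called (median 0.07). Of 17 neuropeptide genes 0 were called, with 4 higher and 1 lower at an unadjusted p under 0.05 (2.63% and 4.03% of all genes). Tac1, the substance P precursor, was among the higher ones with 67.9 and 134 CPM in WT and 137 and 196 CPM in Rbm38KO (0.78, adjusted p = 0.415).

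The Hox and retinoic acid list was split. Of 32 genes measured, 1 fell, Cyp26a1 (0.294% of all genes fell), with a median of 0.17. At an unadjusted p under 0.05, 7 were higher and 3 lower (2.63% and 4.03% of all genes). The 7 higher ones are Hox genes of the B and C clusters, which set position along the body axis. Hoxc6 had the largest of these differences, with 4.25 and 11.5 CPM in WT and 14 and 14.7 CPM in Rbm38KO (0.92, adjusted p = 0.179). Crabp2 and Stra6, which bind and import retinoids, were the other lower ones (-1.07 and -0.95, adjusted p = 0.748 and 0.301). Apart from Cyp26a1, the genes of this paragraph were picked after their values were seen.

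Splicing regulators and the spliceosome were near WT levels. Of 48 alternative splicing regulators 0 were called, and their median was 0.07. At an unadjusted p under 0.05, 2 were higher and 2 lower (2.63% and 4.03% of all genes). The 2 lower ones, Esrp2 (2.18 and 1.58 CPM in WT, 0.566 and 0.992 CPM in Rbm38KO) and Rbm47 (1.57 and 0.552 CPM against 0.324 and 0.425 CPM), are regulators of epithelial cells. The 2 higher ones were Nova2 (49.1 and 42.9 CPM against 61.8 and 57.3 CPM), a neuronal splicing factor, and Khdrbs1 (186 and 177 CPM against 222 and 214 CPM), which encodes Sam68. Of 29 core spliceosome genes 0 passed either threshold (median -0.01). Puf60, which helps U2 snRNP bind 3' splice sites, had 243 and 264 CPM in WT and 269 and 272 CPM in Rbm38KO (0.10, SE 0.07).

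**Figure D3:**
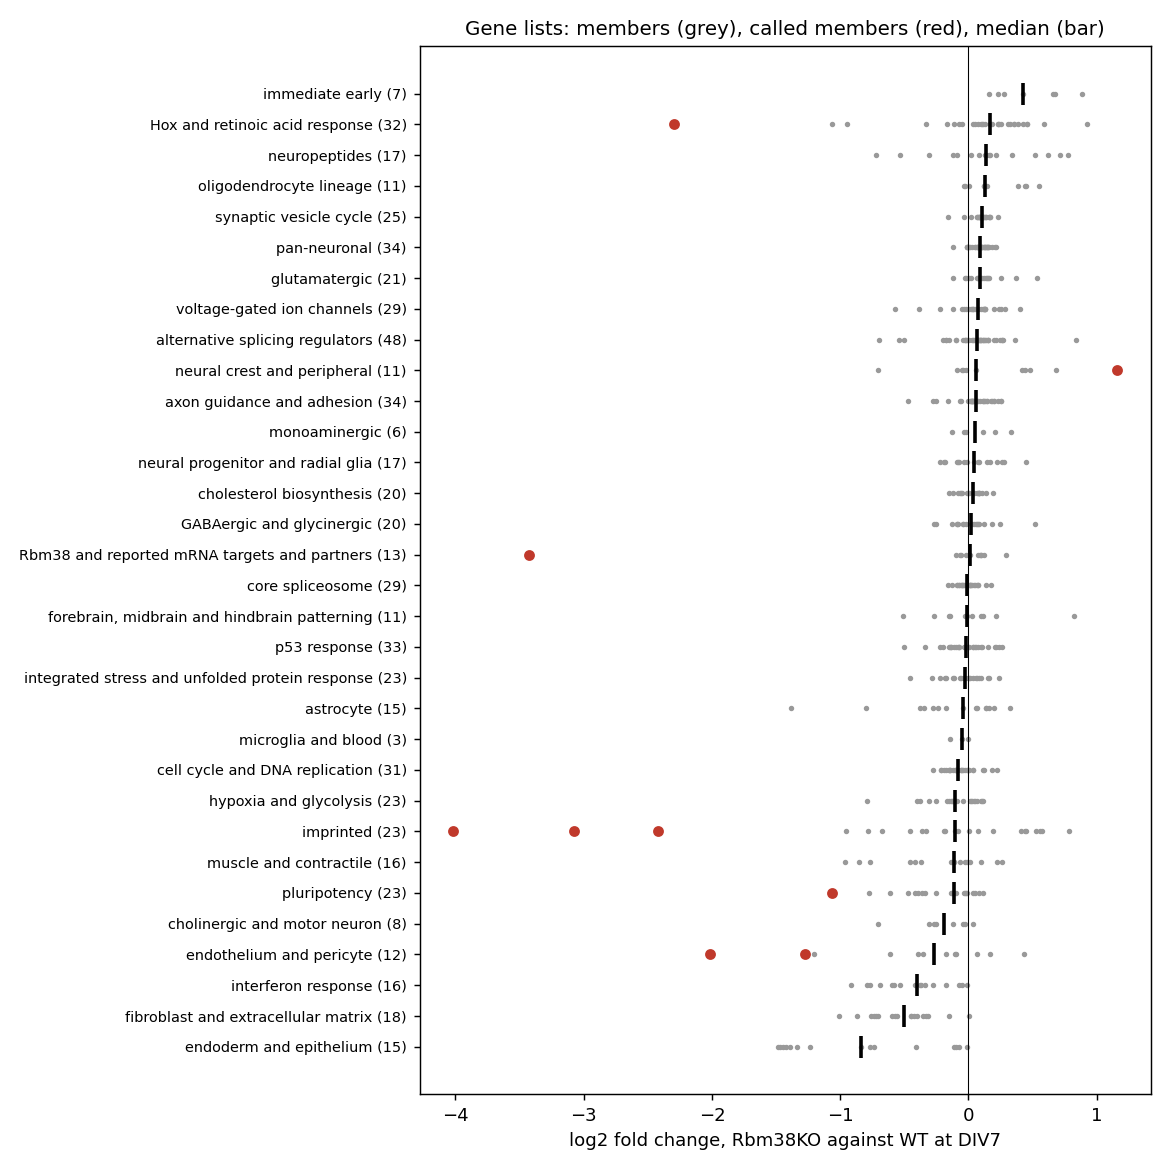
Log2 fold change of Rbm38KO against WT at DIV7 (horizontal axis) for the measured members of each gene list (rows, number of members in brackets), with grey points for members, red points for called members and black bars for medians. Called members are Rbm38, Meg3, Rian, Mirg, Cyp26a1, Flt1, Tek, Klf4 and Pou4f1, and the endoderm and epithelium list has the lowest median, -0.84.

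In the plot of gene lists some members that were not called lie further from 0 than called ones, such as Krt18 (-1.49) against Klf4 (-1.06). The pan-neuronal, splicing and p53 lists have medians around 0, although single splicing regulators reach -0.70 and 0.84. Medians of the endoderm, matrix, interferon and vessel lists lie to the left, at -0.84, -0.50, -0.40 and -0.27.

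No splicing event passed the test. Inclusion was measured as PSI, the percentage of transcripts that contain an exon, intron or splice site. Of 22235 events with at least 10 reads in each DIV7 library, 0 passed with a difference of at least 10 points and an adjusted p below 0.05 (0.00%), and the smallest adjusted p by limma was 0.981. At an unadjusted p under 0.05, 1104 events passed, and 470 of them differed by at least 10 points (2.11%), 211 higher and 259 lower. The median absolute difference between the group means was 2.53 points. It was 3.48 points between the single WT libraries and 3.26 points between the single Rbm38KO libraries. Means of 2 libraries vary less than single libraries, so these values are not on the same footing. By type there were 7383 cassette exons, 437 microexons of 27 nt or less, 7819 introns, 3779 alternative 3' sites and 2817 alternative 5' sites, each with 0 calls. Introns had a median of -1.34 points and cassette exons of 0.04.

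The events of lowest unadjusted p with libraries that did not overlap are given as values. A 162-nt exon of L3mbtl1 (chr2:162944432-162944593), a gene for a chromatin-compacting protein, had a PSI of 69.0% and 77.2% in WT and 100% and 95.5% in Rbm38KO (unadjusted p = 1.87e-04), from 29 to 49 reads in these 4 libraries. The Puf60-edited lines ranged from 75.9% to 88.3%. A 97-nt exon of Cln3 (chr7:126583000-126583096), which encodes a lysosomal membrane protein, had 69.2% and 66.1% in WT and 100% in both Rbm38KO libraries (unadjusted p = 2.61e-04), and 5 of the 6 Puf60-edited libraries were also at 100%. A retained intron of 1180 nt in Ndrg4 (chr8:95711145-95712324) had 88.4% and 89.1% against 72.7% and 76.3% (unadjusted p = 2.50e-04). A 2950-nt intron of Obsl1 (chr1:75494058-75497007) had 16.5% and 19.4% against 35.3% and 39.7% (unadjusted p = 5.03e-04). The Puf60-edited lines ranged from 63.2% to 80.9% for the Ndrg4 intron and from 21.5% to 38.7% for the Obsl1 intron. For both introns all their libraries lay on the Rbm38KO side of both WT libraries. These 4 events had an adjusted p of 0.981 and each carried a call in the authors' deposited table.

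Microexons and alternative sites did not pass the test either. The 11-nt microexon of Gulp1 (chr1:44790696-44790706, plus strand), an adaptor for engulfment of dead cells, is short enough to be shown whole.
Gulp1 microexon: cgccagagatg
Its PSI was 18% and 20.4% in WT and 32.7% and 75.0% in Rbm38KO, a spread between the knockout libraries wider than the gap between the groups (unadjusted p = 0.0161, 10 to 27 reads in these 4 libraries). A 27-nt microexon of Chpt1, an enzyme of phosphatidylcholine synthesis, had 8.63% and 21% in WT and 35.6% and 33.6% in Rbm38KO (unadjusted p = 0.0196). The Puf60-edited lines ranged from 22.6% to 52.6%, also above both WT libraries. An alternative 3' site of Emc1, a subunit of a membrane insertion complex, had 62.5% and 74.4% in WT and 35.1% and 38.1% in Rbm38KO, with the mirrored values at a second site of the same event. At the former site the Puf60-edited lines ranged from 29.7% to 67.1%. An alternative 5' site of Kctd18 had 87.0% and 79.2% against 100% in both Rbm38KO libraries, outside the range of 70.9% to 87.8% in the Puf60-edited lines. One of Tnrc18 had 85.1% and 79.8% against 98.2% and 93.9%.

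Exon 5 of Puf60, the exon edited in the other lines, was measured as a control for those lines. Its PSI was 42.9% and 44.0% in WT and 48.4% and 45.3% in Rbm38KO (unadjusted p = 0.413), while the Puf60-edited lines ranged from 9.83% to 94.8%. Both Rbm38KO values lay above both WT values, and the difference did not pass the test.

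**Figure D4:**
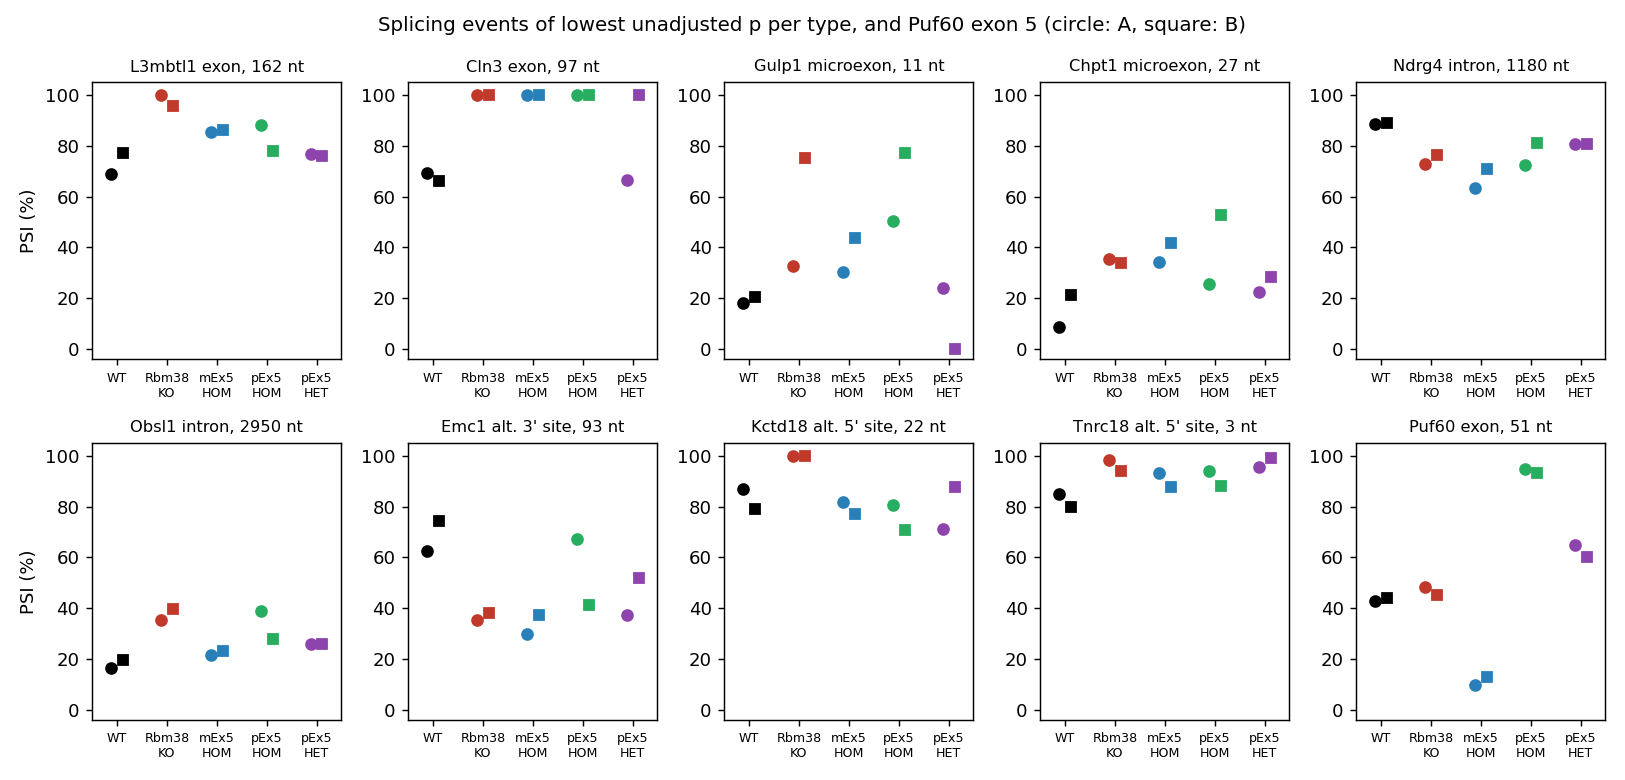
PSI in percent (vertical axis) of 10 splicing events in each DIV7 library, with 1 point per library (circle for replicate A, square for replicate B) and the 5 groups along the horizontal axis. The groups WT and Rbm38KO do not overlap in these events, a condition for picking all but Puf60 exon 5. None passed the adjusted test, and for the Cln3 exon 5 of the 6 Puf60-edited libraries are at 100% as well.

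In the plot of events the Puf60-edited libraries spread widely too, from 0% to 77.3% for the Gulp1 microexon. The authors' deposited table called 3047 of 319486 events as different between Rbm38KO and WT at DIV7, by a criterion that is not given in the sources used here. Of the 15639 exons and introns tested here, 296 carried that call, 123 with higher and 173 with lower PSI in Rbm38KO. Of the 296, 291 had libraries that did not overlap (35.6% of the tested exons and introns did not overlap) and 243 had an unadjusted p under 0.05, with a median absolute difference of 11 points.

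Comparing stages, the loss of Meg3, Rian and Mirg was present from the stem cell on. Meg3 changed by -2.20 at ESC, -3.22 at EB8 and -4.02 at DIV7, Rian by -2.18, -2.23 and -3.08, and Mirg by -2.04, -1.98 and -2.42, all called. On log2(CPM + 1) these values shrink more at the lower levels of the earlier stages, so their sizes are not compared between stages. The authors' deposited log2 fold changes, in the same order of stages, were -2.98, -3.60 and -4.30 for Meg3. They were -3.45, -3.76 and -3.73 for Rian, and -3.32, -2.83 and -3.52 for Mirg. In WT, Meg3 was at 7.39 and 9.18 CPM at ESC, 53.2 and 89.2 CPM at EB8 and 363 and 359 CPM at DIV7, and in Rbm38KO at 0.831 and 1.21, 6.68 and 6.30, and 18.7 and 24.2 CPM. The level thus rose with differentiation in both lines and stayed lower in Rbm38KO at each stage. Only 6 genes were called at EB8 (0.0430%) and 5 at ESC (0.0359%). The median change of the 41 genes called lower at DIV7 was -0.10 at EB8 and -0.03 at ESC.

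The test of the difference between stages called 5 genes for DIV7 against EB8 (0.0359%) and 3 for DIV7 against ESC (0.0215%). Grb10, an imprinted gene for an adaptor that dampens insulin signalling, had 17.3 and 21 CPM in WT and 19.1 and 16.2 CPM in Rbm38KO at DIV7, but 34.6 and 29.8 CPM against 0.963 and 1.16 CPM at EB8 (-0.10 and -4.01, adjusted p of the difference 1.97e-07). At ESC it had 20.6 and 18 CPM against 4.75 and 6.71 CPM (-1.61, adjusted p = 0.00107). Pou4f1 was lower at EB8, with 3.76 and 3.51 CPM in WT and 2.33 and 1.46 CPM in Rbm38KO (-0.69, adjusted p = 0.236), and the difference to its rise at DIV7 passed the test (adjusted p = 8.49e-04). Rasgrf1 had at most 0.303 CPM in any WT or Rbm38KO library of the earlier stages, so its loss could be read at DIV7 alone. Nepn, an extracellular matrix proteoglycan gene, had 2.5 and 1.84 CPM in WT and 0.364 and 0.390 CPM in Rbm38KO at DIV7 (-1.20, adjusted p = 4.62e-06), and at most 0.642 CPM before. Rbm38 itself differed between stages, as its WT level went from 87.4 and 83.4 CPM at ESC to 11.1 and 8.54 CPM at DIV7. Rbm38KO had 0 spliced reads of the gene throughout.

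**Figure D5:**
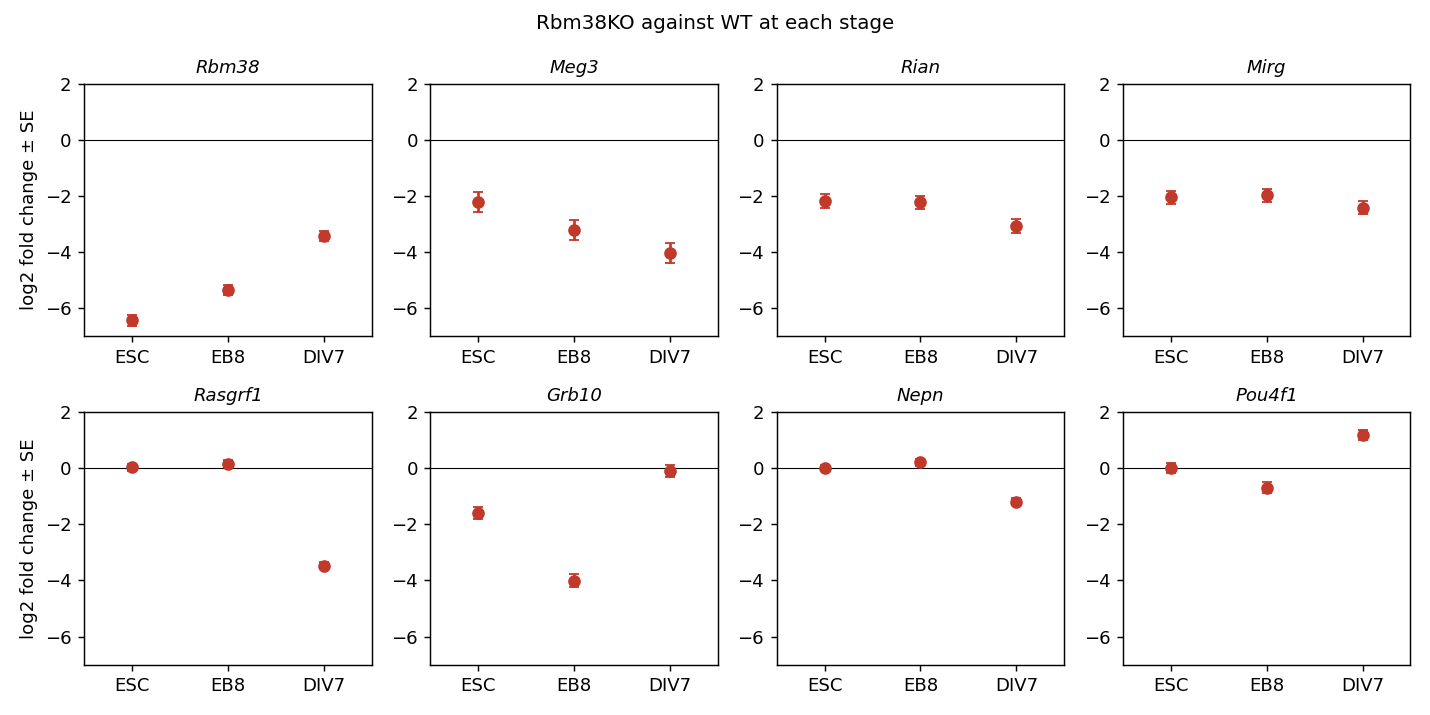
Log2 fold change of Rbm38KO against WT with its standard error (vertical axis) at ESC, EB8 and DIV7 (horizontal axis) for 8 genes, from 2 libraries a group. Meg3, Rian and Mirg lie below 0 at all 3 stages, Grb10 at ESC and EB8, and Rasgrf1 and Nepn at DIV7.

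The plot of fold changes by stage holds one more feature: the values for Rbm38 come closer to 0 with differentiation. A smaller difference common to all stages was seen for Caml, which encodes a protein of the endoplasmic reticulum that inserts tail-anchored proteins and which was picked after its values were seen. It had 30.3 and 39.0 CPM in WT and 17.3 and 20.3 CPM in Rbm38KO at DIV7 (-0.84, SE 0.12, adjusted p = 0.00112), -0.93 at EB8 and -0.87 at ESC. All 6 Puf60-edited libraries, at 34.8 to 38.3 CPM, lay above both Rbm38KO libraries (-0.92, adjusted p = 9.94e-06 against their mean).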

How the data were processed

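PolyA-selected RNA of 30 libraries was sequenced. Per the file headers, the authors deposited inclusion as a percent (PSI) with read strings in the layout of vast-tools, mean RPKM per group, log2 fold changes with p-values and FDR, and TRUE or FALSE splicing calls. Salmon 0.14.1, edgeR and the mm10 build appear in the submitters' processing notes with no role given. The RPKM come with no per-library values, so spliced reads of the intron events were summed per gene, scaled by median-of-ratios to CPM (23204150 to 28655479 reads in the DIV7 libraries), kept at 1 CPM in 2 libraries, and tested on log2(CPM + 1) with limma 3.58.1 in R 4.3.3 (trend, robust, 15 group means). Events were tested on log2 of inclusion over exclusion reads, 1 added to each, with weights, over the 10 DIV7 libraries, at a mean PSI of 5 to 95. The first site of each alternative-site event was left out. Scripts were tested on simulated data. Named genes are Rbm38, Rbm24, Puf60, up to 12 called per direction with libraries not overlapping and 5 RPKM or more, filled up by lowest p to 5, up to 3 called per list, list extremes for p53 and Rbm38 targets, and genes called at all stages. Named events are the 2 of lowest p per type with libraries not overlapping and 10 points or more. Members and lists were chosen with earlier results of these data known. The other alternatives were scaling, pseudocount, filter, junction choice, replicate block and left-out libraries.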

Additional observations from a re-analysis of the deposited data

Results flagged for a closer look

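The difference between Rbm38KO and WT changed with the stage for 5 genes at an adjusted p under 0.05 and 2-fold or more by limma. An effect of the deletion cannot be told apart here from other differences between clonal lines and their parent. For DIV7 minus EB8 the difference in log2 fold change was 3.90 for Grb10 (SE 0.31, adjusted p = 1.97e-07), -1.40 for Nepn (SE 0.17, adjusted p = 1.91e-04), 1.86 for Pou4f1 (SE 0.25, adjusted p = 8.49e-04), -3.62 for Rasgrf1 (SE 0.19, adjusted p = 9.02e-11) and 1.92 for Rbm38 (SE 0.26, adjusted p = 7.59e-04). For DIV7 minus ESC it was -1.20 for Nepn (SE 0.17, adjusted p = 0.00244), -3.50 for Rasgrf1 (SE 0.19, adjusted p = 1.85e-10) and 3.01 for Rbm38 (SE 0.26, adjusted p = 6.14e-07). Rbm38 was at 0 spliced reads in Rbm38KO at each stage, so its difference follows the WT level. Rasgrf1 and Nepn were low in both WT and Rbm38KO before DIV7, so their difference could appear at DIV7 alone. With 2 libraries a group no search for single outlying libraries was made.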

How the results depend on the processing

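The 42 genes called at DIV7 became 12 with a pseudocount of 5 CPM, 24 with the junction of most reads per gene, 6 on the 10 DIV7 libraries, 6 on the 4 libraries alone, 15 against the Puf60-edited lines (8 higher, 7 lower) and 7 to 212 leaving out 1 library at a time. The cause was not tested. The letters A and B are not said to pair libraries, and the A minus B deviations of WT and Rbm38KO had r = -0.21 across 13938 genes. With the replicate block 44 genes were called, 37 of them shared, and with the crossed pairing, added after seeing the data, 60. With the replicate block the 5 genes that differed between DIV7 and EB8 became 20 and the 3 between DIV7 and ESC became 5, and leaving out 1 library gave 5 to 123 and 3 to 78. For splicing the 0 calls became 1 on the 4 libraries alone (an alternative 3' site of Acd, -11.7 points, adjusted p = 0.00144) and 0 to 1 leaving out 1 library (an alternative 3' site of Tnrc18 without Rbm38KO replicate A, adjusted p = 0.00438), and the replicate block and the crossed pairing gave 0 each. The sign turned against the Puf60-edited lines for Ctsh (0.40), Lamb1 (0.15), Dab2 (0.10), Lama1 (0.47), Fxyd3 (0.18), Tspan8 (0.13), Flt1 (0.20), Klf4 (0.32), Cd82 (0.12), Pmaip1 (-0.30) and exon 5 of Puf60 (-9.11 points), and for Rbm24 leaving out 1 library (-0.0303 to 0.213, lowest without Rbm38KO replicate B). Of the values for single genes, events and lists under the alternatives, 580 kept direction and call, 73 kept only direction, 12 reversed and 10 moved. Of the 22235 events, 3189 differed by at least 10 points between the single WT libraries. Between the group means, which vary less than single libraries, 1630 did. The 0 calls for splicing do not exclude differences above 10 points.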

Other observations

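Gene groups outside the comparisons above held a few further values, all picked after they were seen. Of 7 immediate early genes, which respond to neuronal activity, 0 were called and all had a log2 fold change above 0 at DIV7, with a median of 0.42 against WT but -0.34 against the Puf60-edited lines. Fos, the best known of them, had 4.61 and 35.4 CPM in WT and 14.3 and 44.4 CPM in Rbm38KO, a spread within each group wider than the difference between them. Gfap, the intermediate filament gene of astrocytes, had 173 and 88.8 CPM in WT and 22.2 and 98.0 CPM in Rbm38KO (-1.38, adjusted p = 0.626 by limma), and the groups overlapped. Ube3a, a ubiquitin ligase gene imprinted in neurons, was called higher in Rbm38KO than in the Puf60-edited lines (1.11, adjusted p = 2.83e-07), whose libraries ranged from 6.98 to 50.2 CPM, with means of 57.4 CPM in Rbm38KO and 43.7 CPM in WT.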
